A study of Mus musculus with 12 samples.

Results

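The genes that write, erase and read DNA methylation were followed in fibroblasts cultured on soft and stiff gels that either store or relax stress. The 9 genes are the DNA methyltransferases Dnmt1, Dnmt3a and Dnmt3b, the hemimethylation-binding proteins Uhrf1 and Uhrf2, the TET dioxygenases Tet1, Tet2 and Tet3, and the methyl-CpG reader Mbd1. They were chosen by name, with earlier results of these data known. The same holds for the related lists below. Shares over all genes stand beside their counts as a description only. All 9 are among the 33246 genes of the count table, and all 9 are among the 14542 genes that passed the expression filter and were tested. Primary fibroblasts from the ears of mice 1 month old were expanded to passage 2, and 500000 cells were seeded for 48 h on alginate gels before poly(A) RNA was sequenced. The 4 groups were 2 kPa Elastic, 20 kPa Elastic, 2 kPa Viscoelastic and 20 kPa Viscoelastic, with 3 samples each. The elastic gels were crosslinked covalently and the viscoelastic gels ionically with calcium, the latter being the slow-relaxing kind. Stress relaxation and crosslinking chemistry therefore cannot be told apart here, and viscoelasticity below names the kind of gel. All 4 groups shared the same expansion medium and time on the gel. The study isolated cells from C57BL/6 mice of both sexes and from Tau-EGFP reporter mice, and which mice or pools of mice gave each RNA sample is not given in the sources used here. The p-values therefore measure the spread between these samples, which the study calls biological replicates.

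Methylation of cytosine in CpG is copied after each round of DNA replication by Dnmt1, which Uhrf1 brings to the hemimethylated daughter strands. Dnmt3a and Dnmt3b place methyl groups on unmethylated DNA. The TET enzymes oxidize 5-methylcytosine, which leads to its removal, and Mbd1 binds methylated CpG and recruits repressors. Lowering maintenance methylation or raising oxidation has been reported to ease some forms of fibroblast reprogramming. The study used these gels for reprogramming, and DNA methylation itself was not measured here. Since copying is tied to replication, Dnmt1 and Uhrf1 are known to be made mostly in dividing cells, under control of E2F factors.

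Both maintenance genes carried letters of the E2F motif next to a start site, and these stretches are shown because Dnmt1 and Uhrf1 moved together across the gels. The letters TTTCCCGC, TTTCGCGC, TTTGCCGC and TTTGGCGC were searched on both strands in the 250 bases before each RefSeq start of build GRCm38.p6. Of 32851 windows, 1.86% held at least 1 match. Windows were on hand for 8 of the 9 genes, and a match was found for Dnmt1 and Uhrf1. That share is per window over all promoters, while both genes have more than 1 window. The letters themselves hold a CpG, and the matching windows are rich in it. They held 26 CpG for Dnmt1 and 30 for Uhrf1, beside a median of 6 over all windows. Among 17 genes of a list of S phase markers that had a window, 4 held a match. The lines give 30 bases around the match, 5′ to 3′ on the strand of the gene, with the matching letters in capitals. Dnmt1 is read at chr9:20952824-20952853 on the minus strand, inside an annotated exon, with the match 7 bp after the nearest transcript start of the GENCODE annotation. Uhrf1 is read at chr17:56304117-56304146 on the plus strand, 182 bp before the nearest start. Mcm5, a subunit of the replicative helicase and the gene with the profile most like that of Uhrf1, is read at chr8:75109347-75109376 on the plus strand, where a TTTCGCGC overlaps a second match on the other strand. Cdc6, which loads that helicase, is read at chr11:98908002-98908031 on the plus strand.
Dnmt1: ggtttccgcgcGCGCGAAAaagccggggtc
Uhrf1: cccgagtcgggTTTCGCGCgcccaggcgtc
Mcm5: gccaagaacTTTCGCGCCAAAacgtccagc
Cdc6: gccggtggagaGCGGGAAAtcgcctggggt
A match says only that these letters are there, and binding was not measured here.

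Depth lay between 36626221 and 43612804 counts per sample, and TMM factors between 0.968 and 1.03. Values are counts-per-million (CPM) after TMM scaling, with SD over n = 3, and a gene was called where the Benjamini-Hochberg adjusted p of edgeR's quasi-likelihood test, adjusted over 14542 genes, was under 0.05. The summed fibroblast markers stood between 58090 and 83100 CPM, while those of keratinocytes, endothelium, immune cells and melanocytes or glia each stayed at or below 7.74 CPM in every sample. Chondrocyte markers were abundant, with sums of 4189 to 5874 CPM led by Col2a1, and Matn1 had at most 8 counts in a sample. In these bulk samples, fewer cells of a type and less RNA per cell cannot be told apart.

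Per kilobase of exon, the maintenance genes led and Tet1 was lowest. The mean over the 12 samples was 20.9 CPM per kb for Dnmt1, 12.7 for Uhrf1, 9.52 for Uhrf2 and 5.49 for Mbd1. Tet2 followed with 2.01 CPM per kb, then Dnmt3a with 1.95, Tet3 with 1.55, Dnmt3b with 0.430 and Tet1 with 0.203. Neighbours in this order had overlapping ranges over the samples for Dnmt1 and Uhrf1, Uhrf1 and Uhrf2, Tet2 and Dnmt3a, and Dnmt3a and Tet3, although Dnmt1 exceeded Uhrf1 and Dnmt3a exceeded Tet3 in 12 of 12 samples. Tet2 exceeded Dnmt3a in 7 of 12 samples, so their order is not set. Dnmt1 supplied 86.8% to 92.6% of the DNMT signal per kb, and Tet2 47.7% to 62.7% of the TET signal.

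**Figure D1:**
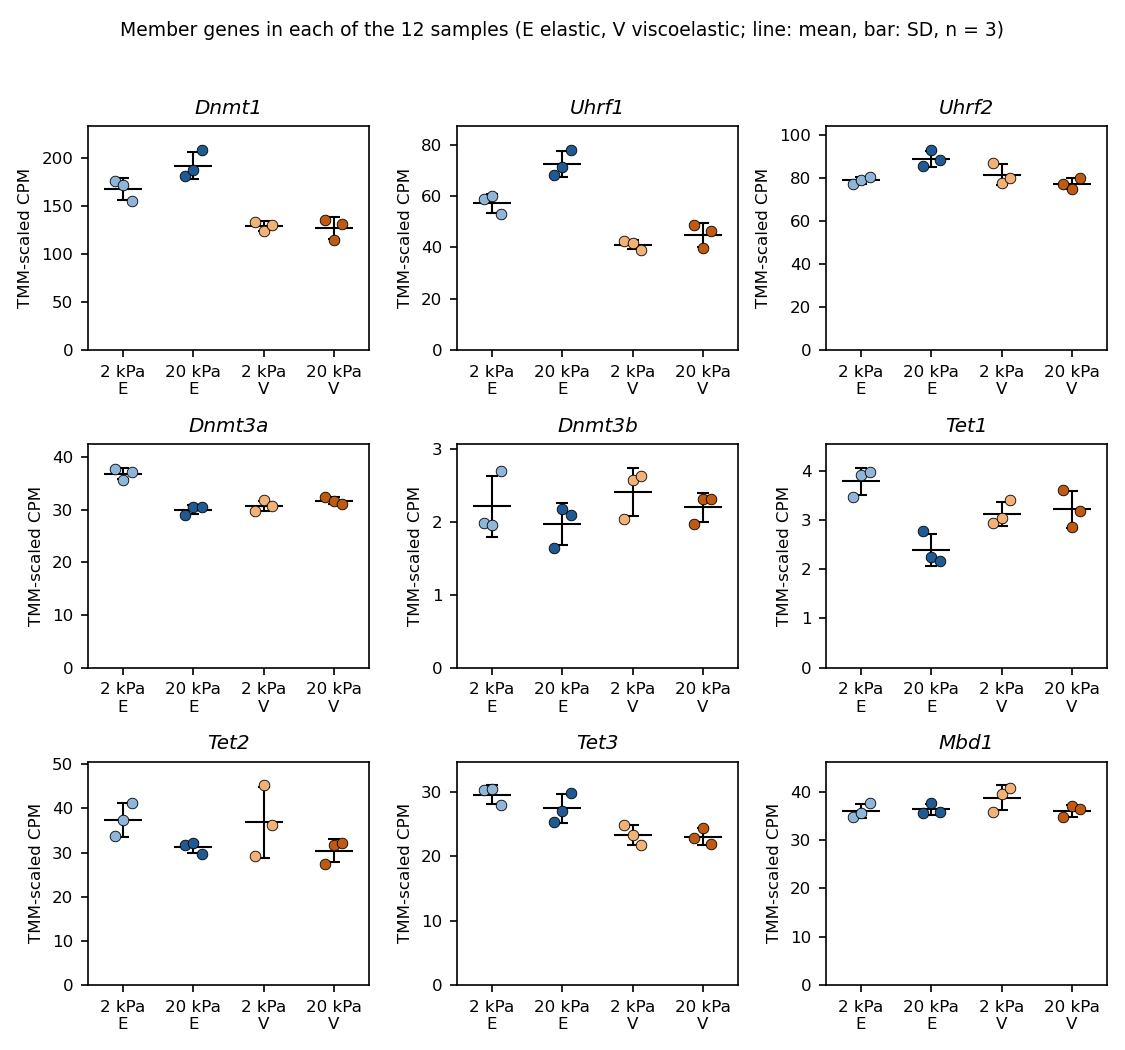
TMM-scaled CPM (vertical axes, from 0) of the 9 genes in each sample of the 4 gel groups (horizontal axes), with the group mean as a line and the SD as a bar, n = 3. Every viscoelastic sample of Dnmt1 and Uhrf1 lies below every elastic sample, and Dnmt3a is highest in the 3 samples from 2-kPa elastic gels.

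At 2 kPa, 4 of the 9 genes (Uhrf1, Dnmt1, Tet3 and Dnmt3a) were lower on viscoelastic than on elastic gels and none was higher. The background was 19.9% of all tested genes called, 8.77% higher and 11.1% lower. At 20 kPa, Uhrf1, Dnmt1, Tet3 and Uhrf2 were lower on viscoelastic gels and Tet1 was higher. Thus 5 of 9 were called, against 33.5% of all genes, 17.4% higher and 16.1% lower. Stiffening elastic gels from 2 to 20 kPa raised Uhrf1 and lowered Dnmt3a and Tet1, 3 of 9 against 14% of all genes, 6.81% higher and 7.14% lower. The same stiffening of viscoelastic gels gave 0 calls in edgeR and in DESeq2, with 2.28% of all genes called. There 1 of 9, Tet2, had an unadjusted p under 0.05, and the samples of all 9 genes overlapped, while 22.3% of all tested genes did not overlap. Averaged over both stiffnesses, Uhrf1, Dnmt1 and Tet3 were lower on viscoelastic gels and none of the 9 was higher, against 40% of all genes called, 19.6% higher and 20.4% lower. The median log2 fold change of the 9 for viscoelastic against elastic gels was -0.26 at 2 kPa and -0.04 at 20 kPa, beside 0.00 and 0.02 over all tested genes. The comparisons share groups with one another and are given side by side only.

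**Figure D2:**
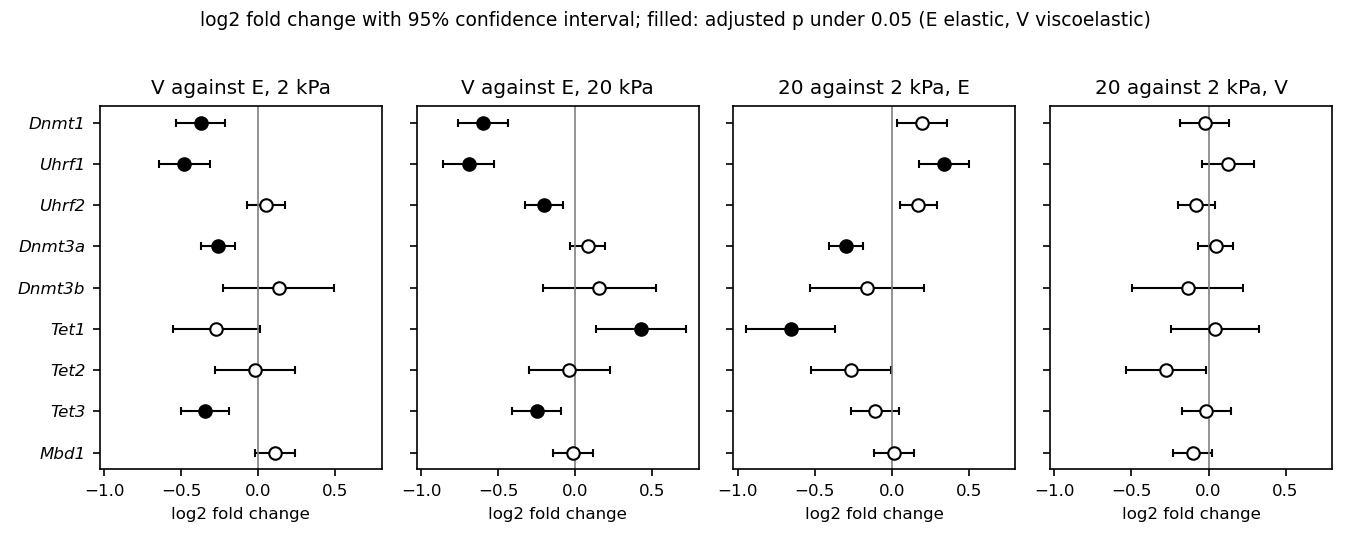
Log2 fold changes of the 9 genes (horizontal axes) in the 4 pairwise comparisons, with 95% confidence intervals from the edgeR fit and filled circles for an adjusted p under 0.05. The intervals of Dnmt1 and Uhrf1 lie below 0 at both stiffnesses for viscoelastic against elastic gels, and no circle is filled for stiffness on viscoelastic gels.

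Dnmt1, the maintenance methyltransferase, was lower on viscoelastic gels at both stiffnesses. Its 3 samples stood at 176, 172 and 155 CPM on soft elastic gels and at 133, 124 and 130 CPM where the soft gel was viscoelastic. On 20-kPa gels the samples stood at 181, 187 and 208 CPM when elastic and at 136, 114 and 131 CPM when viscoelastic. All 6 viscoelastic samples were below all 6 elastic samples, which held for 3 of the 9 genes (Dnmt1, Uhrf1 and Tet3) and in the same direction for 6.51% of all tested genes. Dnmt1 fell by 22.9% at 2 kPa (log2 fold change -0.38, SE 0.0759, edgeR adjusted p = 0.00348) and fell by 33.8% at 20 kPa (-0.60, SE 0.0760, adjusted p = 0.00013). The log2 fold changes at 20 and 2 kPa differed by -0.22, which missed the threshold (edgeR interaction, 95% interval from -0.45 to 0.01, adjusted p = 0.241). On elastic gels the mean was 168 ± 11.2 CPM at 2 kPa and 192 ± 14.1 CPM at 20 kPa without overlap of the samples, as for 35.6% of all tested genes, and this was not called (0.19, edgeR adjusted p = 0.103). On viscoelastic gels the means were 129 ± 4.88 and 127 ± 11.2 CPM (-0.03, 95% interval from -0.19 to 0.14).

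Uhrf1, the partner that recognizes hemimethylated CpG, gave the lowest log2 fold change of the 9 at both stiffnesses. The samples of 2-kPa gels stood at 58.9, 59.8 and 53.0 CPM when elastic and at 42.6, 41.6 and 39.0 CPM when viscoelastic. Those of 20-kPa gels stood at 68.0, 71.5 and 77.8 CPM when elastic and at 48.6, 39.7 and 46.3 CPM when viscoelastic. At each stiffness, the gap between the elastic and the viscoelastic samples was wider than the spread within either group. Uhrf1 fell by 28.3% at 2 kPa (log2 fold change -0.48, SE 0.0786, edgeR adjusted p = 0.000906) and by 38.0% at 20 kPa (-0.69, SE 0.0781, adjusted p = 8.87e-05). Both genes kept these calls under every alternative setting at this threshold and with any 1 sample left out. On elastic gels Uhrf1 also rose with stiffness, from 57.2 ± 3.69 to 72.4 ± 4.94 CPM (0.34, edgeR adjusted p = 0.00957), a call that was lost without the third 20-kPa elastic sample (0.28, adjusted p = 0.0523). On viscoelastic gels the change with stiffness was 0.13 (95% interval from -0.04 to 0.30, not called).

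Uhrf2, a paralogue of Uhrf1 that also binds modified CpG but is not known to replace it in maintenance, followed another course. Its samples lay between 75.0 and 93.0 CPM throughout. The 20-kPa elastic samples were the highest group, at 85.7, 93.0 and 88.3 CPM, against 77.2, 75.0 and 80.0 CPM on 20-kPa viscoelastic gels. There Uhrf2 fell by 13.0% (log2 fold change -0.20, edgeR adjusted p = 0.0142), and it was lost without 20-kPa elastic sample 2 (adjusted p = 0.0715), without 20-kPa viscoelastic sample 2 (0.0562) and after correction for exon length (-0.11, adjusted p = 0.115). At 2 kPa the samples overlapped, with means of 79.0 ± 1.56 CPM (elastic) and 81.7 ± 4.90 CPM (viscoelastic). With stiffness on elastic gels the 3 higher samples did not overlap the 3 lower ones, as for 35.6% of all tested genes. This was not called (0.17, edgeR adjusted p = 0.0581), and 6 of 9 alternative settings called the difference. Uhrf1 accordingly made up 57.0% to 64.0% of the UHRF signal per kb on elastic gels and 49.5% to 55.9% on viscoelastic gels, ranges that do not overlap.

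S phase and mitosis markers moved with Dnmt1 and Uhrf1. Of 20 S phase markers, 11 fell and 0 rose with viscoelasticity at 2 kPa, with a median log2 fold change of -0.28, and 17 fell and 0 rose at 20 kPa, with a median of -0.48. The medians over all tested genes were 0.00 and 0.02, and 11.1% of them fell at 2 kPa and 16.1% at 20 kPa. Of the same 20 markers, 14 rose with stiffness on elastic gels, where 6.81% of all genes rose. On viscoelastic gels 0 were called, beside 2.28% of all genes. There all 20 had a positive log2 fold change with stiffness, with a median of 0.14 beside 0.01 over all tested genes. Mcm5 led at 2 kPa with -0.48 (edgeR adjusted p = 0.00147) and Mcm3 at 20 kPa with -0.60 (adjusted p = 0.000119), both of them helicase subunits. Mitosis markers followed, 8 of 15 lower at 2 kPa and 15 of 15 at 20 kPa, led there by the checkpoint kinase Bub1 (-0.84, adjusted p = 0.00013). The summed S phase markers averaged 971 CPM on 2-kPa elastic, 1237 on 20-kPa elastic, 809 on 2-kPa viscoelastic and 874 on 20-kPa viscoelastic gels. The study also labelled DNA synthesis with EdU after 48 h. At 2 kPa it reports more proliferation when the substrate was viscoelastic, the reverse of the marker drop. For 20 kPa it found no significant difference, and among elastic substrates a rise with stiffness. Lower marker RNA therefore need not mean fewer cells in S phase, and the cause of this mismatch was not tested. The part of these cell cycle genes in the drop of Dnmt1 and Uhrf1 was not tested either.

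Set against the S phase sum of the same sample, both maintenance genes had lower means on viscoelastic than on elastic gels of the same stiffness. Uhrf1 amounted to 5.89% ± 0.239 and 5.85% ± 0.0121 of that sum on soft and stiff elastic gels, and to 5.07% ± 0.0195 and 5.13% ± 0.0653 on the viscoelastic ones. Its 6 elastic samples (5.65% to 6.13%) did not overlap its 6 viscoelastic samples (5.05% to 5.20%). Dnmt1 amounted to 17.2% ± 0.626 against 16.0% ± 0.898 at 2 kPa, where samples overlapped, and to 15.5% ± 0.144 against 14.5% ± 0.103 at 20 kPa, where they did not. Its mean was also lower on stiff than on soft gels of either kind. Across stiffnesses its elastic and viscoelastic samples overlapped, and the 2-kPa viscoelastic mean (16.0%) was above the 20-kPa elastic mean (15.5%). Such ratios depend on the markers chosen, and the mitosis markers fell more than the S phase markers. Their median log2 fold change was -0.32 at 2 kPa and -0.59 at 20 kPa. The changes of Dnmt1 were -0.38 and -0.60, and those of Uhrf1 -0.48 and -0.69. The ratios to the S phase sum were computed after the results had been seen and carry no test.

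**Figure D3:**
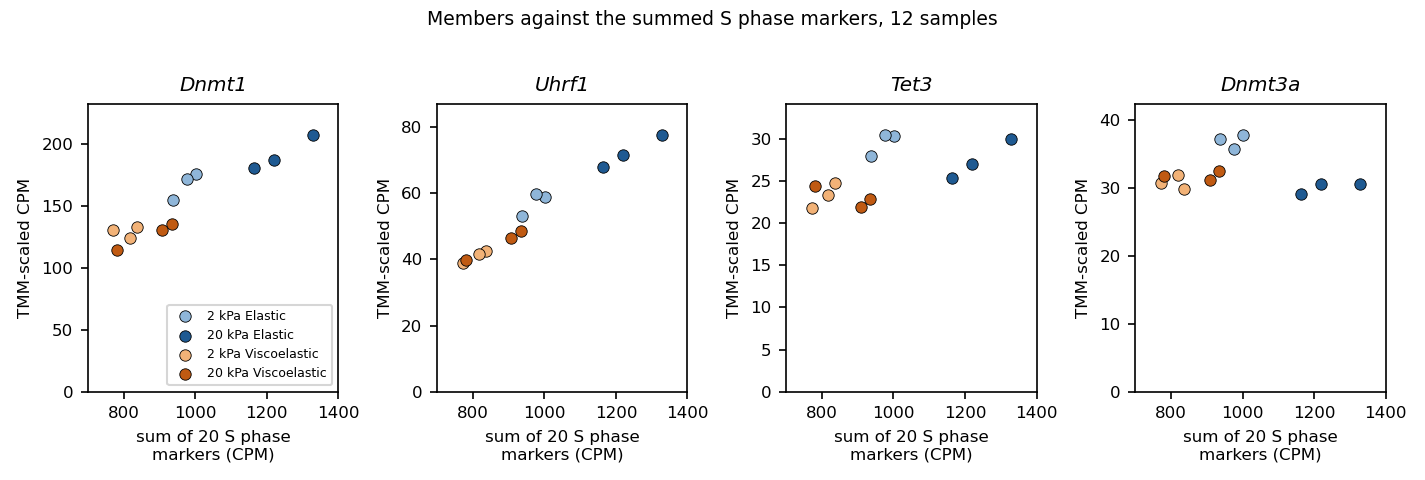
TMM-scaled CPM of Dnmt1, Uhrf1, Tet3 and Dnmt3a (vertical axes, from 0) against the summed CPM of 20 S phase markers (horizontal axes, not from 0) in the 12 samples, coloured by gel group. The 3 samples of 20-kPa elastic gels are highest in the S phase sum, Dnmt1 and Uhrf1, and among the lowest in Dnmt3a.

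Dnmt3a, a de novo methyltransferase, was highest on soft elastic gels. The 3 samples of 2-kPa elastic gels stood at 37.8, 35.7 and 37.2 CPM, and the 9 other samples lay between 29.1 and 32.4 CPM. Against the 2-kPa elastic samples the level fell by 16.7% on 2-kPa viscoelastic gels, whose samples stood at 29.8, 31.8 and 30.7 CPM (log2 fold change -0.26, SE 0.0529, edgeR adjusted p = 0.00342). It fell by 18.6% on 20-kPa elastic gels, at 29.1, 30.5 and 30.5 CPM (-0.30, SE 0.0530, edgeR adjusted p = 0.00201). At 20 kPa the viscoelastic samples, at 32.4, 31.7 and 31.2 CPM, lay above the elastic ones without overlap, as for 49.9% of all tested genes. This was not called (0.08, edgeR adjusted p = 0.257). The effect of stiffness differed between the gel types by 0.34 on the log2 scale (edgeR interaction, SE 0.0750, adjusted p = 0.0117). Dnmt3a and Tet1 were the 2 of 9 genes with a called interaction, both positive, against 7.56% of all tested genes, 4.45% positive and 3.12% negative. Reads of the antisense transcript Dnmt3aos, which shares 133 exonic bp with Dnmt3a, cannot be told apart here since the strand setting of the counting is not given.

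Genes of great exon length were lower on viscoelastic gels as a class, and Dnmt3a, Tet1, Tet2 and Tet3 are among the longest. Exon length here is that of all annotated exons of a gene merged, which can exceed any single transcript. When the genes were divided into 10 classes by exon length, the median log2 fold change for viscoelastic against elastic gels went from 0.12 in the shortest class to -0.11 in the longest at 2 kPa, and from 0.21 to -0.13 at 20 kPa. With that trend removed, the drop of Dnmt3a at 2 kPa was -0.12 (edgeR adjusted p = 0.188) and a rise at 20 kPa was called (0.23, adjusted p = 0.012). Its drop with stiffness on elastic gels and its interaction kept their calls (-0.26 and 0.36, adjusted p = 0.0124 and 0.0227). Uhrf1, with 4259 bp, is in class 5 and Dnmt1, with 7377 bp, in class 8, and after the correction their drops at 2 kPa were -0.48 and -0.31, both called.

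**Figure D4:**
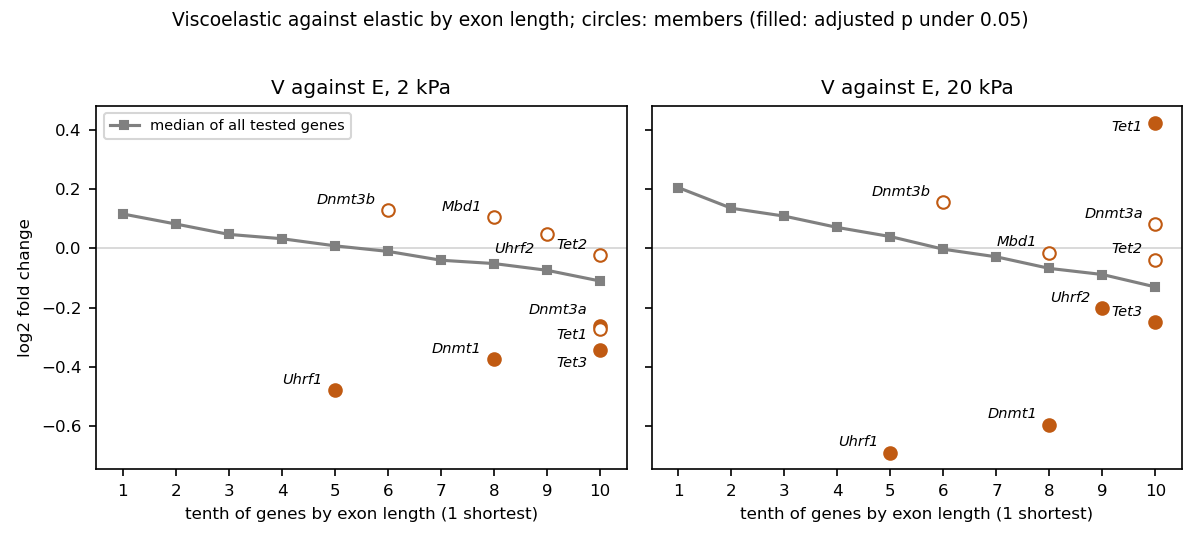
Log2 fold change for viscoelastic against elastic gels (vertical axes) at 2 kPa and 20 kPa, as the median of all tested genes in each of 10 classes of exon length (grey squares, class 1 shortest) and for each of the 9 genes (circles, filled where adjusted p is under 0.05). Uhrf1 and Dnmt1 lie far below the grey line of their classes, while Tet3 in class 10 lies closer to it.

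Dnmt3b, the other de novo enzyme, was near the lower end of what these libraries measure, with 70 to 110 counts per sample. Its samples lay between 1.63 and 2.69 CPM, and all 4 pairs of groups overlapped. The log2 fold change for viscoelastic against elastic gels was 0.13 at 2 kPa (95% interval from -0.23 to 0.49) and 0.16 at 20 kPa (from -0.21 to 0.52). At this depth neither a lower nor a higher level on viscoelastic gels could be told from no change. Within the DNMT signal per kb, Dnmt3a made up 6.42% ± 0.339 on 20-kPa elastic gels, against 8.76% ± 0.572 on 2-kPa elastic, 9.33% ± 0.574 on 2-kPa viscoelastic and 9.81% ± 0.763 on 20-kPa viscoelastic gels.

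Tet3 was the only TET gene called lower on viscoelastic gels at both stiffnesses, with calls that did not hold after correction for exon length. On 2-kPa gels its samples stood at 30.4, 30.5 and 28.0 CPM when elastic and at 24.8, 23.3 and 21.8 CPM when viscoelastic. On 20-kPa gels they stood at 25.4, 27.0 and 29.9 CPM when elastic and at 22.9, 24.4 and 21.9 CPM when viscoelastic. Tet3 fell by 21.3% at 2 kPa (log2 fold change -0.35, SE 0.0738, edgeR adjusted p = 0.00488) and fell by 15.9% at 20 kPa (-0.25, SE 0.0739, adjusted p = 0.018). Neither call held once the length trend was removed (-0.21 and -0.09, edgeR adjusted p = 0.0534 and 0.344), while the mean over both stiffnesses remained called (-0.15, adjusted p = 0.0293, against -0.30 and 0.000515 without the correction) and was lost under the replicate block with length and GC correction (adjusted p = 0.0548). The 20-kPa call was also lost without the third elastic (adjusted p = 0.0997), the first viscoelastic (0.0511) or the third viscoelastic sample (0.0776).

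Tet1, the lowest of the 9 per kb of exon, fell with stiffness on elastic gels, and no such change was called on viscoelastic gels. It was counted 145 to 160 times per sample on 2-kPa elastic gels, which gave 3.48, 3.92 and 3.98 CPM, and 88 to 119 times on 20-kPa elastic gels, which gave 2.78, 2.26 and 2.17 CPM. With stiffness it thus fell by 36.5% (log2 fold change -0.66, SE 0.136, edgeR adjusted p = 0.00543), and it was called under every setting and with any 1 sample left out. On viscoelastic gels the samples stood at 2.94, 3.05 and 3.41 CPM at 2 kPa and at 3.63, 2.87 and 3.19 CPM at 20 kPa, which overlap (0.04, 95% interval from -0.24 to 0.33). At 20 kPa Tet1 was thus 34.3% higher on viscoelastic than on elastic gels (0.43, SE 0.137, edgeR adjusted p = 0.0271), without overlap, as for 49.9% of all tested genes. At 2 kPa it was lower on viscoelastic gels, also without overlap, as for 36.3% of all genes, and was not called (-0.27, edgeR adjusted p = 0.159). The effect of stiffness differed between the gel types by 0.70 (edgeR interaction, SE 0.191, adjusted p = 0.0369).

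The Tet1 calls at 20 kPa and for the interaction lay near the threshold. The former was lost, with log2 fold changes from 0.33 to 0.43, when 20-kPa elastic sample 2 (adjusted p = 0.0958) or 3 (0.109), or 20-kPa viscoelastic sample 1 (0.118) or 3 (0.0593) was left out. The interaction was lost in 8 of 12 such fits, with values from 0.61 to 0.71 and edgeR adjusted p up to 0.1. Some chondrocyte markers also changed with stiffness on elastic gels, as Dnmt3a and Tet1 did. Of 5 tested, 3 fell with stiffness on elastic gels, where 7.14% of all tested genes fell. They were the collagen gene Col9a1 (-0.69, edgeR adjusted p = 0.00496), the aggrecan gene Acan (-0.50, 0.00767) and the link protein gene Hapln1 (-0.38, 0.0265). Col9a1 and Hapln1 also had a called interaction (1.01 and 0.64), beside 4.45% of all genes with a positive one. For viscoelastic against elastic gels at 2 kPa, 1 of the 5 fell and 0 rose, where 11.1% of all genes fell. At 20 kPa 2 rose and 0 fell, where 17.4% of all genes rose. The group sums of the list averaged 5449 CPM on 2-kPa elastic, 4240 on 20-kPa elastic, 4984 on 2-kPa viscoelastic and 5064 on 20-kPa viscoelastic gels, and their part in the result was not tested.

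Tet2, the most abundant TET gene per kb, was not called in any comparison, although its lower level with stiffness on elastic gels was called when those 6 samples were fitted alone (log2 fold change -0.26, edgeR adjusted p = 0.0352). Its samples lay between 27.4 and 45.2 CPM, and the 2-kPa viscoelastic group alone spanned from 29.2 to 45.2 CPM. The means were 37.5 ± 3.83 CPM on 2-kPa elastic, 31.2 ± 1.25 on 20-kPa elastic, 36.8 ± 8.02 on 2-kPa viscoelastic and 30.4 ± 2.63 on 20-kPa viscoelastic gels. The log2 fold change with stiffness was -0.26 on elastic gels (edgeR adjusted p = 0.168) and -0.28 on viscoelastic gels (adjusted p = 0.228). Only the elastic samples did not overlap, as for 35.6% of all tested genes. The antisense gene Gm42567 shares 43 exonic bp with Tet2.

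Mbd1, the reader among the 9, differed little between the gels. Its samples lay between 34.7 and 40.8 CPM, with group means of 36.0 ± 1.43 CPM on 2-kPa elastic, 36.4 ± 1.16 on 20-kPa elastic, 38.7 ± 2.58 on 2-kPa viscoelastic and 36.0 ± 1.19 on 20-kPa viscoelastic gels. The 4 pairs of groups overlapped. The log2 fold change for viscoelastic against elastic gels was 0.11 at 2 kPa (95% interval from -0.02 to 0.23) and -0.01 at 20 kPa (from -0.14 to 0.12).

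Few other readers passed the test. Of 10 further CpG-binding genes, most of them methyl-CpG readers, 2 were called at 20 kPa, where Zbtb38 fell (log2 fold change -0.51, edgeR adjusted p = 0.000531) and Mbd2, a subunit of the NuRD repressor complex, rose (0.24, adjusted p = 0.00606). At 2 kPa 0 of the 10 were called, where 19.9% of all tested genes were called, and at 20 kPa that share was 33.5%. The median of the list was -0.01 at 2 kPa and 0.01 at 20 kPa.

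Some partners of maintenance methylation fell along with Dnmt1 and Uhrf1. Of 11 tested, 2 fell, 1 rose and 8 were not called at 2 kPa, where 11.1% of all tested genes fell. At 20 kPa 5 fell, 0 rose and 6 were not called, where 16.1% of all genes fell. The medians were -0.13 and -0.34. Hells, the remodelling ATPase needed for methylation of compact DNA, went from 40.6 ± 1.06 to 30.7 ± 3.31 CPM at 2 kPa (-0.40, edgeR adjusted p = 0.0264) and from 56.5 ± 8.65 to 35.8 ± 5.65 CPM at 20 kPa (-0.66, adjusted p = 0.000801). Cdca7, its activator, fell at 20 kPa (-0.50, edgeR adjusted p = 0.00677), as did the ligase Lig1 at both stiffnesses (-0.40 and -0.50, adjusted p = 0.00312 and 0.000355) and the PCNA-associated factor Pclaf at 20 kPa (-0.37, adjusted p = 0.0113). Zfp57, which guards methylation of imprinted regions, was the member that rose at 2 kPa (0.50, edgeR adjusted p = 0.0181). On elastic gels 4 of these 11 rose with stiffness and 0 fell, beside 6.81% of all genes that rose. The 4 were Pclaf, Hells, Cdca7l and Pcna. Dppa3 had at most 1 count in a sample.

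Genes of active demethylation split in both directions. Of 12 genes of the TDG and base excision route, 2 rose and 2 fell at 2 kPa and 3 rose and 3 fell at 20 kPa, with medians of 0.00 at both, where 19.9% and 33.5% of all tested genes were called. Gadd45g and Gadd45b, stress-induced genes proposed to guide demethylation, rose at 2 kPa, Gadd45g from 24.3 ± 1.57 to 40.6 ± 3.78 CPM (log2 fold change 0.74, edgeR adjusted p = 0.000379) and Gadd45b from 24.6 ± 2.28 to 32.7 ± 0.791 CPM (0.41, adjusted p = 0.00218). Tdg, the glycosylase that removes oxidized 5-methylcytosine, fell at 2 kPa from 9.44 ± 0.312 to 7.82 ± 0.277 CPM (-0.27, edgeR adjusted p = 0.0438). The endonuclease gene Apex1 fell there too (-0.28, adjusted p = 0.0328). At 20 kPa the glycosylase gene Neil3 fell (-0.45, edgeR adjusted p = 0.00256) and Polb, the gap-filling polymerase, rose (0.23, adjusted p = 0.0162).

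Cofactor enzymes and partners of the TET proteins gave 1 rise and 2 drops at 2 kPa and 2 rises and 3 drops at 20 kPa among 11 genes. The medians were -0.05 and -0.08, and 19.9% and 33.5% of all tested genes were called. Idh1, which makes the 2-oxoglutarate that TET enzymes consume, went from 122 ± 5.44 to 148 ± 5.69 CPM at 2 kPa (log2 fold change 0.28, edgeR adjusted p = 0.00898) and from 116 ± 10.0 to 148 ± 5.40 CPM at 20 kPa (0.35, adjusted p = 0.00121). Slc23a2, a vitamin C transporter, went the other way at both stiffnesses (-0.32 and -0.54, edgeR adjusted p = 0.0178 and 0.000426). Hcfc1, a partner of the O-GlcNAc transferase that binds TET proteins, was lower at both (-0.33 and -0.46, adjusted p = 0.0039 and 0.000244). Cxxc5, a protein with a CXXC domain, fell with stiffness on elastic gels (-0.19, edgeR adjusted p = 0.0244) and had a called interaction (0.25, adjusted p = 0.0475).

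In the folate and S-adenosylmethionine cycle, which supplies the methyl donor, 7 of 14 genes fell with viscoelasticity at 20 kPa, 0 rose and 7 were not called, beside 16.1% of all tested genes that fell. At 2 kPa 3 rose and 1 fell, where 8.77% of all genes rose and 11.1% fell. With stiffness on elastic gels 7 rose and 0 fell, beside 6.81% of all genes that rose. Shmt1, a serine hydroxymethyltransferase, fell at both stiffnesses (log2 fold change -0.30 and -0.38, edgeR adjusted p = 0.0396 and 0.00574). Mthfd2, a mitochondrial folate enzyme, rose at 2 kPa from 45.5 ± 7.43 to 69.0 ± 2.19 CPM (0.60, edgeR adjusted p = 0.00357).

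Genes that DNA methylation is known to hold silent stayed close to 0. Of 12 such germline genes, 10 did not pass the expression filter, which 14542 of all 33246 genes passed. Asz1, Mael and Tex101 had 0 counts in each of the 12 samples. That allows a level of up to 0.0688 CPM in the deepest and 0.0819 CPM in the shallowest sample by counting error alone. Ddx4, a germ cell RNA helicase, had 17 to 80 counts per sample and rose with viscoelasticity at 2 kPa, from 0.663 ± 0.226 to 1.67 ± 0.290 CPM (log2 fold change 1.34, edgeR adjusted p = 0.00356), while on stiff gels it stood at 1.14 ± 0.309 CPM (elastic) and 1.07 ± 0.231 CPM (viscoelastic). Of all tested genes, 8.77% were called higher at 2 kPa. Ddx4 also had a called negative interaction (-1.44, edgeR adjusted p = 0.0322), as did 3.12% of all tested genes. Sycp3, the other one tested, was not called and had 4 to 16 counts per sample.

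Imprinted genes, whose parental alleles differ in methylation, moved in both directions. Of 16 tested, 3 rose and 3 fell with viscoelasticity at 2 kPa, where 19.9% of all tested genes were called. At 20 kPa 7 rose and 1 fell, where 33.5% of all genes were called. The medians were 0.17 and 0.26 beside 0.00 and 0.02 over all tested genes. Cdkn1c, an inhibitor of cyclin-dependent kinases, went from 16.8 ± 4.10 to 47.0 ± 9.55 CPM at 20 kPa (log2 fold change 1.48, edgeR adjusted p = 0.000101). The noncoding RNA H19 went from 440 ± 61.3 to 807 ± 21.9 CPM there (0.87, adjusted p = 0.000109). Both also rose with stiffness on viscoelastic gels, by 0.98 and 0.46 (edgeR adjusted p = 0.0168 and 0.0363). Igf2r and Dlk1 fell at 2 kPa (-0.54 and -0.56, adjusted p = 0.000752 and 0.00112), while Mest rose (0.69, adjusted p = 0.00251). Counts per gene do not separate the parental alleles.

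Across the 12 samples Dnmt1 and Uhrf1 had the most similar profiles of any pair among the 9, with Pearson's r = 0.970 and Spearman's rho = 0.965 of log2 CPM. The samples share their groups and scaling, so this is a description. Dnmt3a and Tet1 gave r = 0.685 and rho = 0.804, while Uhrf2 and Tet1 ran opposite with r = -0.708. Outside the 9, the genes most like Uhrf1 were Mcm5 (r = 0.995), Chaf1a (0.992) and Lig1 (0.988). Those most like Dnmt1 were the DNA polymerase gene Pole (0.992), the condensin gene Ncapd2 (0.991) and the translation initiation factor gene Eif4g1 (0.990). Dnmt3a was most like Ntn4 (0.976), Col10a1 (0.970) and Bmf (0.970), Tet1 most like Fbxl16 (0.950), Cpt2 and Boc, Tet3 most like Lancl3 (0.976), Marchf6 and Cacna2d1, and Tet2 most like Sfi1 (0.944), Tmc4 and Pogz. For Uhrf2 they were Cul4b (0.940), Nras and Rbm41, for Dnmt3b Zfp160 (0.948), Ldb3 and Unc13b, and for Mbd1 Zbtb49 (0.937), Alpk1 and Stk19.

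In genome build mm10, the count table's symbols were placed with a GENCODE annotation. Dnmt1 lies at chr9:20907209-20959888 on the minus strand with 7377 bp of exon, Uhrf1 at chr17:56303321-56323486 on the plus strand with 4259 bp and Uhrf2 at chr19:30030513-30093722 on the plus strand with 8590 bp. Dnmt3a lies at chr12:3806007-3914443 with 16642 bp and Dnmt3b at chr2:153649450-153687730 with 5106 bp, both on the plus strand. The TET genes are on the minus strand, Tet1 at chr10:62804570-62908996 with 15457 bp, Tet2 at chr3:133463679-133545139 with 16870 bp and Tet3 at chr6:83362373-83459084 with 16695 bp. The counts cover all exons of a gene and do not separate its transcripts.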

How the data were processed

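RNA-seq covered 12 samples of mouse ear fibroblasts, 3 per gel. The authors trimmed the reads (Trimmomatic), mapped them to mm10 (STAR) and summarised them over GENCODE genes (featureCounts). The deposited values are raw counts without normalization. The annotation release, strand setting and treatment of reads that map to several places are not given in the sources used here. Samples were grouped by their titles.

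The 9 genes and the related lists were chosen with earlier results of these data known. The software for testing was edgeR 4.0.16 (R 4.3.3). After filterByExpr by group (minimum count 10, minimum total 15) and TMM scaling, all 12 samples entered 1 quasi-likelihood fit in which each gel had its own mean. P-values were adjusted by Benjamini-Hochberg over the 14542 genes tested. The biological coefficient of variation was 7.50%. Replicate pairs differed by 11.2 to 55.5 times the variance of counting alone, so no sample was taken as a duplicate. Counts of 14542 genes were simulated for viscoelastic against elastic gels at 2 kPa, with 100 genes changed by 0.5 on the log2 scale and 100 by 1. Of these, 67% and 88% were recovered, and 3.12% of calls were wrong. In the data 19.9% of genes were called and a length trend was present, which the simulation lacked. These rates therefore need not hold for the data.

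The text names the 9 genes, up to 4 called genes with the lowest adjusted p per related list and comparison, list members not detected, and the 3 genes most like each of the 9 by Pearson's r of log2 CPM (prior count 2). Levels per kb and the length classes used the merged annotated exons of each gene in mm10, not the length of a transcript. Alternatives were DESeq2 1.42.0, RLE and total-count scaling, no filter, a replicate block, corrections for exon length and GC content (known for 97.6% of tested genes), an adjusted p under 0.01, the 6 compared samples alone, and leaving out each sample. ATAC-seq, imaging and enzyme assays were not analysed here.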

Additional observations from a re-analysis of the deposited data

Results flagged for a closer look

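For Dnmt3a and Tet1 the effect of stiffness differed between elastic and viscoelastic gels by a test of the difference itself. For Dnmt3a the log2 effect of stiffness was 0.34 higher on viscoelastic than on elastic gels (edgeR quasi-likelihood interaction, adjusted p = 0.0117). It was called under each of 8 other settings at the same threshold and with any 1 sample left out. For Tet1 the difference was 0.70 (edgeR, adjusted p = 0.0369), and this one was lost under the replicate block and in 8 of 12 fits that left out 1 sample. In both genes the mean of the 2-kPa elastic samples was the highest of the 4 groups, and for Tet1 those samples overlapped the 20-kPa viscoelastic ones.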

How the results depend on the processing

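Dnmt1 and Uhrf1 kept their lower level on viscoelastic gels, and the call, at both stiffnesses under each of the 9 alternatives and in each of the 12 fits without 1 sample. Over all 9 genes and 6 comparisons, 424 of 468 values under other settings and 597 of 648 with 1 sample left out kept direction and side of the threshold. Tests that need more depth were limited for Dnmt3b and Tet1, which had at most 110 and 160 counts in a sample.

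The number of the 9 genes called at 2 kPa fell from 4 to 2 under the length correction and under the replicate block with length and GC correction. At 20 kPa it fell from 5 to 2 at an adjusted p under 0.01, and ranged from 3 to 5 with 1 sample left out, being 3 without 20-kPa elastic sample 2 or 3 or 20-kPa viscoelastic sample 1 or 3. For stiffness on elastic gels it went from 3 to 5 under the block with both corrections and with the 6 compared samples alone. For the interaction it went from 2 to 0 at an adjusted p under 0.01, to 1 under the replicate block and under the block with both corrections, and from 1 to 3 with 1 sample left out. For viscoelastic against elastic gels averaged over stiffness, the related lists gave 73 called genes, and 67 to 75 under the 6 alternatives run on them. The cause of these changes was not tested.

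Same-numbered samples did not deviate together in every pair (correlations from -0.16 to 0.31 over genes). Between the viscoelastic groups the correlations were 0.18, 0.31 and 0.05. This check cannot exclude a pairing there, and the main fit used none. The replicate block changed no call of the 9 genes but that of the Tet1 interaction (log2 0.70, adjusted p = 0.0613), and 1, 0, 0 and 4 of 6 samples correlated best with their own number in the 4 pairwise comparisons.

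Values near 0 changed sign without being called. Under the length correction, the log2 change for viscoelastic against elastic gels of Tet2 became 0.12 at 2 kPa, 0.12 at 20 kPa and 0.12 averaged, of Mbd1 0.053 at 20 kPa, of Dnmt3a 0.056 averaged and of Uhrf2 0.0071 averaged. On viscoelastic gels the change with stiffness became 0.0033 for Dnmt1 and 0.042 for Tet3. Under the replicate block with length and GC correction these were 0.083, 0.10 and 0.089 for Tet2, 0.044 for Mbd1, 0.056 for Dnmt3a, 0.018 for Dnmt1 and 0.054 for Tet3, and the interaction of Tet2 was 0.012. With total counts alone, Tet2 became 0.015 at 2 kPa and 0.0058 averaged, and Mbd1 0.021 at 20 kPa. With the GC correction the interaction of Dnmt3b became -0.012. With 1 sample left out, viscoelastic against elastic gels at 2 kPa ranged from -0.00023 to 0.084 for Uhrf2 and from -0.20 to 0.12 for Tet2. At 20 kPa it ranged from -0.078 to 0.033 for Tet2 and from -0.045 to 0.013 for Mbd1, and averaged over stiffness from -0.12 to 0.041 for Tet2. Stiffness on elastic gels ranged from -0.011 to 0.048 for Mbd1. On viscoelastic gels it ranged from -0.076 to 0.045 for Dnmt1, from -0.051 to 0.12 for Tet1 and from -0.060 to 0.032 for Tet3. The interaction ranged from -0.13 to 0.11 for Dnmt3b and from -0.16 to 0.16 for Tet2.

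The count of all genes called moved by more than 1.5 times in some settings. For stiffness on viscoelastic gels, 331 genes were called, against 769 in DESeq2, 653 without the filter, 154 under the replicate block, 89 under the block with both corrections, 161 under the length correction and 38 with the 6 compared samples alone, while 0 of the 9 genes were called in each of these. That count fell to 9 without 20-kPa viscoelastic sample 3 and to 36 without sample 1. At 2 kPa it went from 2892 to 1545 without 2-kPa elastic sample 1 and to 1924 without sample 2. At 20 kPa it went from 4866 to 3177 without 20-kPa elastic sample 3. For stiffness on elastic gels it went from 2029 to 1167 and 1341 without 2-kPa elastic samples 1 and 2 and to 1063 without 20-kPa elastic sample 3. For the interaction it went from 1100 to 670 without 2-kPa elastic sample 1 and to 727 without 20-kPa viscoelastic sample 1. With total counts alone, the share of called genes that were higher on viscoelastic gels moved from 44.1% to 57.1% at 2 kPa, from 51.9% to 60.7% at 20 kPa and from 48.9% to 60.5% averaged, with the number of the 9 genes called unchanged.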
